A study of Sus scrofa with 67 samples.

Results

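A set of 29 genes, of 25322 in the count table, was chosen by measured values. Their level in the pig endometrium was low on day 9 and had not recovered by day 15. By the same measure there was no such change between days 0 and 9 in the ovary and the oviduct. Counts were divided by the library's total and multiplied by 1000000 (CPM), averaged over the libraries of a tissue and day, and 1 was added to each mean. A gene belonged to the set when its day 9 mean in the endometrium was at most 0.25 of its day 0 mean, when the ratio of day 9 to day 0 lay between 0.5 and 2 in both the ovary and the oviduct, and when its day 15 mean in the endometrium was under 0.5 of its day 0 mean. In the endometrium 235 genes met the first condition, 84 of these also met the second, and 29 met all conditions. A further 54 genes met the first and second conditions with a day 15 mean of at least 0.5 of day 0, and serve below as the set most like it, and 1 gene that the rule leaves out by its identifier belongs to neither. A symbol was found for 21 of the 29 genes, and the other 8 are given by their Ensembl identifiers. The added 1 draws the ratio of a sparse gene towards 1. In the ovary ENSSSCG00000026117 had means of 0.781 CPM on day 0 and 0.169 CPM on day 9, with a ratio of 0.656. ENSSSCG00000028813 had 1.15 and 0.263 CPM (0.587), TAF7L 0.491 and 0 CPM (0.671) and LTF 7.65 and 3.33 CPM (0.5003). For such genes the choice does not show a flat level in the ovary.

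The tissues came from crossbred Landrace × Yorkshire gilts of 6 to 8 months of age that had already shown normal cycles, with no treatment labelled for any group, and day 0 was the first day of oestrous behaviour. Polyadenylated RNA was sequenced from the endometrium freed of the muscle layer, from the ovary and from the oviduct on 7 days at intervals of 3 days from day 0 to day 18, and each library was made from bulk tissue. Each tissue had 22 libraries, with 3 per day in the endometrium except for 4 on day 15, and 2 to 4 per day in the other tissues. The methods describe the tissues as collected from 1 set of gilts, and groups of 4 hold more libraries than the gilts described per day. Some libraries may therefore share an animal in a way the labels do not give. Where libraries of 1 group share an animal, p-values that treat libraries as independent may be too small. For differences between tissues that share animals, p-values may instead be too large. Of 67 labelled samples, 1 of endometrium day 12 was not analysed here. The total count of a library was between 8962103 and 13442083, so that 3 counts, taken as the lowest detectable level, were worth 0.223 to 0.335 CPM.

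After ovulation the corpora lutea form and secrete progesterone, and the endometrium turns from an oestrogen-driven, proliferating tissue into a secretory one that can receive an embryo. When no pregnancy is established the corpora lutea regress, progesterone falls, and follicles again supply oestrogen towards the next oestrus. The endometrium carries receptors for both hormones in its epithelium and stroma, and secretes proteins that protect and remodel the uterine surface.

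The days that chose the genes (0, 9 and 15 in the endometrium, and 0 and 9 in the other tissues) are described without a test. Differences between days were tested only among days 3, 6, 12 and 18, which the choice did not use, with the quasi-likelihood test of edgeR and Benjamini-Hochberg adjustment over all genes tested. A gene was called at an adjusted p under 0.05, and every fold change below is on the log2 scale with its standard error (SE). In tissue of mixed cells, fewer cells of a type and less RNA per cell cannot be told apart. CPM is not scaled by gene length, so levels are compared between days and tissues for the same gene, never between genes.

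The labelled tissues were checked against marker genes. The epithelial markers EPCAM, CDH1, KRT8, KRT18 and FOXA2 summed to between 1938 and 4933 CPM in the endometrium libraries, and the ovarian somatic cell markers, 3 of which were found, to between 0 and 1.53 CPM. In the ovary the epithelial markers summed to between 3.02 and 45.4 CPM, except in day 15 libraries 1, 3 and 4 (797, 1011 and 707 CPM) and day 18 library 1 (763 CPM). Without that day 18 library, 0 genes of the set were called in the ovary between days 18 and 12, and 11 in place of 12 in the difference between endometrium and ovary for these days. Ovary day 15 library 1 also stood apart in other ways. Its FOXJ1, the regulator that defines ciliated cells, was at 245 CPM against 2.19 to 4.69 CPM in the other 3 libraries of that day, and it was the highest of the 4 libraries in 21 of the 29 genes (42.4% of all genes). In the endometrium the lowest library was number 3 on day 3 for 22 of the 29 genes (41.3% of all genes), number 2 on day 12 for 19 (30.7%), number 2 on day 15 for 19 (31.3%) and number 1 on day 18 for 23 (55.2%).

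**Figure D1:**
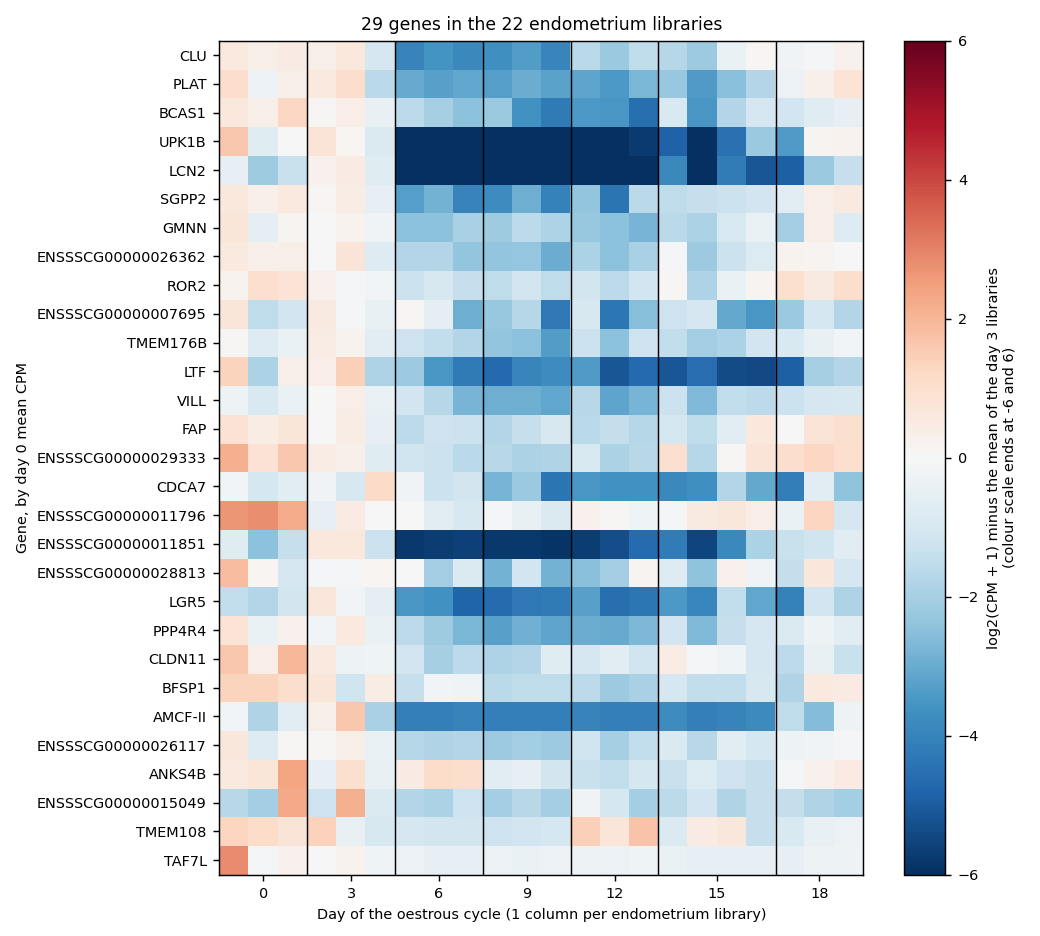
Each row is 1 of the 29 genes and each column 1 of the 22 endometrium libraries, ordered by day; colour is log2(CPM + 1) minus the mean of the gene's day 3 libraries, with the scale ending at -6 and 6. Blue fills days 6, 9 and 12 for most rows, while ENSSSCG00000011796 is highest on day 0 and TMEM108 turns red again on day 12.

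The genes with secreted products of host defence are described first. CLU encodes clusterin, a secreted chaperone. In the endometrium CLU was at 3254, 4003 and 1267 CPM on day 3, at 159, 212 and 173 CPM on day 6, at 830, 546 and 890 CPM on day 12 and at 2199, 2318 and 3037 CPM on day 18. No day 3 library overlapped with days 6 or 12, and day 12 lay wholly above day 6. CLU fell by 3.77 ± 0.50 from day 3 to day 6 (adjusted p = 0.00015), rose by 2.0 ± 0.47 from day 6 to day 12 (adjusted p = 0.0093) and rose by 1.67 ± 0.46 from day 12 to day 18 (adjusted p = 0.018). The last call was lost without day 12 library 2 (adjusted p = 0.07) or without day 18 library 3 (adjusted p = 0.058).

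LCN2 encodes lipocalin 2, which binds the iron carriers of bacteria. Its endometrial level was 474, 556 and 243 CPM on day 3, then 2.74, 3.88 and 3.83 CPM on day 6 and 5.1, 2.45 and 3.9 CPM on day 12. On day 18 the libraries were at 12.4, 85.5 and 154 CPM. Every day 18 library was above every day 12 library and below every day 3 library. LCN2 fell by 6.66 ± 0.86 from day 3 to day 12 (adjusted p = 0.00013) and rose by 4.35 ± 0.79 from day 12 to day 18 (adjusted p = 0.0032). Its difference between day 18 and day 3 was -2.31 ± 0.69 (adjusted p = 0.051).

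LTF encodes lactoferrin, an iron-binding protein of mucosal secretions. LTF varied widely between libraries of the same day, with 59.4, 123 and 11.8 CPM on day 3, 8.97, 3.05 and 1.43 CPM on day 6, 3.28, 0.32 and 0.817 CPM on day 12, and 0.533, 10.4 and 12.5 CPM on day 18. Unlike most of the set, it had its lowest mean on day 15. Its 4 libraries of that day were between 0.0848 and 0.928 CPM, and the day 18 mean was 12.1% of the day 3 mean. LTF fell by 5.29 ± 1.15 from day 3 to day 12 (adjusted p = 0.0032), while the difference between day 18 and day 12 was 2.30 ± 1.08 (adjusted p = 0.13).

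AMCF-II encodes a pig CXC chemokine that attracts neutrophils. It was read at 20.9, 52.4 and 3.53 CPM on day 3, and held 1 count in all on day 6 (library values 0, 0 and 0.0892 CPM) and 1 count in all on day 12 (0.0864, 0 and 0 CPM). On day 18 it was at 5.12, 1.84 and 13.1 CPM. Days 6 and 12 lay under the level of 3 counts in every library, and days 3 and 18 above it. Over pooled counts the day 3 level was 792 times the day 12 level, with an exact 95% interval from 142 to 31327 that covers counting error only. It was called lower on day 12 than on day 3 (adjusted p = 0.00044) and higher on day 18 than on day 12 (adjusted p = 0.004). Its fitted fold changes rest on single counts and are not given. The chemokine family has near-identical copies between which reads could be split, so its level is uncertain.

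Several leukocyte markers were called lower on days 6 and 12 than on day 3, and 0 of 5 were called higher on day 18 than on day 12 (median fold change 0.04). The summed level of PTPRC, CD2, CD14, CD68 and CSF1R was 86.3 to 182 CPM on day 3, 28.8 to 47.5 CPM on day 6, 37.9 to 56.4 CPM on day 12 and 38.3 to 66.9 CPM on day 18. Of these 5 markers, 4 were called lower on day 6 than on day 3 and 3 were called lower on day 12 than on day 3, where CD14 differed by 0.38 ± 0.34 (adjusted p = 0.45). PTPRC, the pan-leukocyte antigen CD45, fell by 1.82 ± 0.38 from day 3 to day 12 (adjusted p = 0.0024) and was not called between day 18 and day 12, at -0.10 ± 0.37 (adjusted p = 0.88). Among neutrophil markers, a list chosen after the data were seen, MPO was at 0 CPM in every endometrium library, and CSF3R was at 3.32 to 18.8 CPM on day 3, 0.853 to 3.63 CPM on day 12 and 4.12 to 31.2 CPM on day 18. The part of leukocytes in the levels of LCN2, LTF and AMCF-II was not tested.

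The extracellular proteases form the next group. PLAT encodes tissue-type plasminogen activator, which turns plasminogen into plasmin. Its endometrial level was 722, 1006 and 155 CPM on day 3, 58, 50 and 55.5 CPM on day 6, 52.3, 43.3 and 70.3 CPM on day 12, and 380, 600 and 854 CPM on day 18. Days 6 and 12 overlapped, as did days 3 and 18. PLAT fell by 3.36 ± 0.55 from day 3 to day 12 (adjusted p = 0.00061) and rose by 3.38 ± 0.55 from day 12 to day 18 (adjusted p = 0.0022), while day 18 differed from day 3 by 0.02 ± 0.50 (adjusted p = 0.99).

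FAP encodes fibroblast activation protein, a serine protease of the fibroblast surface. FAP was at 32.1, 43.9 and 22.2 CPM on day 3, 10, 12.6 and 12.3 CPM on day 6, 9.59, 11 and 8.8 CPM on day 12, and 32.2, 53.8 and 62.5 CPM on day 18. It fell by 1.62 ± 0.42 from day 3 to day 12 (adjusted p = 0.0094) and rose by 2.27 ± 0.43 from day 12 to day 18 (adjusted p = 0.0035). FAP lay near the limits of the choice and was kept in only 4 of 10 repeats of it that left out 1 endometrium library each. In a list of matrix proteases and their inhibitors, of which 9 genes were tested and PLAT was 1, 7 were called lower on day 6 than on day 3 and 6 were called lower on day 12 than on day 3. The stromal collagenase activator MMP14 fell by 1.21 ± 0.29 from day 3 to day 12 (adjusted p = 0.0051), and TIMP1, an inhibitor of these proteases, differed by 0.52 ± 0.41 (adjusted p = 0.37).

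2 of the genes encode receptors of the Wnt pathway. LGR5 is a receptor for R-spondins and marks stem cells of several epithelia. LGR5 was at 15, 12.3 and 19.9 CPM on day 0 and at 71.9, 39.5 and 30.1 CPM on day 3. Every day 3 library of LGR5 was above every day 0 library, which is described without a test because day 0 chose the genes. It was then at 2.96, 2.68 and 0.624 CPM on day 6, 3.71, 0.96 and 1.27 CPM on day 12 and 1.71, 19.3 and 11.5 CPM on day 18. LGR5 fell by 4.45 ± 0.83 from day 3 to day 12 (adjusted p = 0.0013). Days 12 and 18 overlapped, and although LGR5 was called higher on day 18, by 2.36 ± 0.78 (adjusted p = 0.041), the call was lost without day 12 library 2 (adjusted p = 0.13) or 3 (adjusted p = 0.11), or without day 18 library 2 (adjusted p = 0.18) or 3 (adjusted p = 0.085). It was also lost in a fit of these days alone (2.36, adjusted p = 0.096) and with the replicate block (2.40, adjusted p = 0.063). With no filter on low counts it was lost as well (2.36, adjusted p = 0.058).

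ROR2 encodes a receptor tyrosine kinase for WNT5A. It was at 63.5, 49.4 and 46.5 CPM on day 3, 21.2, 26.6 and 19.7 CPM on day 6, 23.8, 16.9 and 23.1 CPM on day 12, and 104, 76.3 and 111 CPM on day 18. Day 18 was above day 3 in every library, a pattern shared only with ENSSSCG00000029333 among the 29 (13% of the 14446 genes with a mean endometrial level of at least 1 CPM). ROR2 was the only one of the 29 with its highest mean on day 18. ROR2 rose by 2.14 ± 0.38 from day 12 to day 18 (adjusted p = 0.0028). Its fall from day 3 to day 12, 1.20 ± 0.37 (adjusted p = 0.022), was lost without day 3 library 1 (adjusted p = 0.08) or without day 12 library 1 (adjusted p = 0.053) or 2 (adjusted p = 0.084). Among the other Wnt genes listed, SFRP1, a secreted Wnt inhibitor, fell by 2.70 ± 0.39 from day 3 to day 12 (adjusted p = 0.00028) and LEF1, a transcription factor of the pathway, rose by 1.15 ± 0.26 (adjusted p = 0.0039).

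Genes of the cell cycle followed separate courses. GMNN encodes geminin, which keeps DNA from being licensed for a repeated round of replication. GMNN was at 98.5, 114 and 83.4 CPM on day 3, 16.7, 16.7 and 24.3 CPM on day 6, 19.7, 17.1 and 13.5 CPM on day 12, and 22.5, 130 and 57.7 CPM on day 18. Every day 6 and day 12 library was below every day 3 library. GMNN fell by 2.16 ± 0.48 from day 3 to day 6 (adjusted p = 0.0044) and differed by -0.28 ± 0.47 between day 12 and day 6 (adjusted p = 0.74). Its rise from day 12 to day 18, 1.98 ± 0.48 (adjusted p = 0.01), was lost without day 18 library 2 (1.21, adjusted p = 0.074).

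CDCA7 encodes a chromatin-associated protein first described as a cell division cycle gene. CDCA7 was at 49.2, 29 and 130 CPM on day 3 and at 49.5, 23.2 and 25.9 CPM on day 6, so these days overlapped. On day 12 it was at 4.23, 3.73 and 3.72 CPM, and on day 18 at 2.24, 35.4 and 9.93 CPM. CDCA7 fell by 3.14 ± 0.85 from day 6 to day 12 (adjusted p = 0.02), a call lost without day 6 library 1 (adjusted p = 0.08) or without day 12 library 1 (adjusted p = 0.065) or 3 (adjusted p = 0.068). Of 13 listed cell cycle genes, 12 were called lower on day 12 than on day 3 and 11 lower on day 12 than on day 6, while CDC20 was called higher on day 12 than on day 3 (0.71 ± 0.25, adjusted p = 0.038), whereas their fold changes from day 3 to day 6 lay between -0.78 and 0.45. TOP2A, the topoisomerase of dividing cells, fell by 3.71 ± 0.92 from day 3 to day 12 (adjusted p = 0.0072), and differed by 0.13 ± 0.82 between day 6 and day 3 (adjusted p = 0.93).

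Genes of the epithelial surface and cytoskeleton were the next group. UPK1B encodes uroplakin 1B, a tetraspanin of the bladder lining. In the endometrium UPK1B was at 298, 189 and 96.3 CPM on day 3, 1.58, 1.02 and 1.07 CPM on day 6, 0.346, 0.427 and 2.27 CPM on day 12, and 15.7, 196 and 203 CPM on day 18. Its day 12 mean was 0.521% of its day 3 mean. UPK1B fell by 7.41 ± 1.28 from day 3 to day 12 (adjusted p = 0.00084) and rose by 6.93 ± 1.27 from day 12 to day 18 (adjusted p = 0.0032). VILL, which encodes a villin-like protein, was at 79.9, 105 and 60.1 CPM on day 3, 24.2, 8.11 and 10.7 CPM on day 12, and 31.9, 39.4 and 40.8 CPM on day 18. VILL fell by 2.40 ± 0.43 from day 3 to day 12 (adjusted p = 0.001), and its day 18 libraries were all below day 3.

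ANKS4B, which encodes a scaffold of the microvillar adhesion complex, was still present on day 6, at 2.96, 4.9 and 4.73 CPM, against 0.983, 4.35 and 1.04 CPM on day 3. It was at 0.0864, 0 and 0.363 CPM on day 12 and at 1.6, 2.28 and 2.87 CPM on day 18. ANKS4B was called lower on day 12 than on day 6 (adjusted p = 0.002), but its day 12 level rests on 5 counts in all, so its fitted fold changes against that day are not given. BFSP1, which encodes the lens filament protein filensin, was at 0.739, 3.05 and 2.85 CPM on day 6 and at 0.518, 0 and 0.182 CPM on day 12. BFSP1, with 8 counts in all on day 12, was called lower on that day than on day 6 (adjusted p = 0.029), a call lost without day 6 library 2 (adjusted p = 0.087) or 3 (adjusted p = 0.066) or day 12 library 2 (adjusted p = 0.076) or 3 (adjusted p = 0.094). CLDN11, a claudin of tight junctions, was at 7.15, 3.35 and 3.53 CPM on day 3, 1.48, 0.37 and 0.803 CPM on day 6, 1.73, 2.45 and 1.36 CPM on day 12 and 0.854, 2.98 and 1.13 CPM on day 18. It fell by 2.23 ± 0.67 from day 3 to day 6 (adjusted p = 0.026), a call lost without day 3 library 1 (adjusted p = 0.12) or without day 6 library 2 (adjusted p = 0.12) or 3 (adjusted p = 0.077), and was not called on day 12 against day 3 (-1.24 ± 0.62, adjusted p = 0.15) or on day 18 against day 12 (-0.21 ± 0.65, adjusted p = 0.85).

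Epithelial markers changed in both directions in this interval. Their summed level was 2225 to 2358 CPM on day 3 and 2384 to 3662 CPM on day 12. FOXA2, the regulator of uterine glands, rose by 1.46 ± 0.27 from day 3 to day 12 (adjusted p = 0.0014), KRT18 rose by 1.05 ± 0.28 (adjusted p = 0.0097), and CDH1 fell by 0.75 ± 0.21 (adjusted p = 0.014). The 3 ciliated cell markers found summed to 305 to 475 CPM on day 3, 122 to 242 CPM on day 12 and 313 to 374 CPM on day 18, and the stromal markers to 9290 to 11303, 13527 to 15880 and 9031 to 15330 CPM on these days. On day 6 the stromal markers summed to 5319 to 6079 CPM, and 2 of the 6 were called lower than on day 3, as were 6 of 14 listed genes of the extracellular matrix. The 3 endothelial markers found, PECAM1, KDR and TEK, summed to 435 to 519 CPM on day 3, 171 to 201 CPM on day 6, 207 to 474 CPM on day 12 and 461 to 579 CPM on day 18. KDR and TEK were called lower on day 6 than on day 3, TEK was called lower on day 12 than on day 3, and PECAM1 and TEK were called higher on day 18 than on day 12. The part of these cell types in the levels of the 29 genes was not tested.

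SGPP2 encodes a phosphatase of sphingosine 1-phosphate, a signalling lipid. SGPP2 was at 93.1, 118 and 61.2 CPM on day 3, 7.92, 11.5 and 4.55 CPM on day 6, 16, 3.2 and 28.2 CPM on day 12, and 54.5, 112 and 127 CPM on day 18. SGPP2 fell by 2.36 ± 0.53 from day 3 to day 12 (adjusted p = 0.0037) and rose by 2.52 ± 0.53 from day 12 to day 18 (adjusted p = 0.0054). PPP4R4 encodes a regulatory subunit of protein phosphatase 4, and was at 10.2, 17.5 and 8.42 CPM on day 3, 0.605, 0.533 and 0.908 CPM on day 12, and 5.76, 9.21 and 6.7 CPM on day 18. PPP4R4 fell by 3.97 ± 0.59 (adjusted p = 0.00032) and then rose by 3.31 ± 0.59 (adjusted p = 0.003).

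BCAS1 declined over a longer time. Its libraries were at 321, 400 and 221 CPM on day 3, 102, 75.3 and 55.4 CPM on day 6, 27, 26.5 and 12.3 CPM on day 12 and 137, 184 and 214 CPM on day 18, with no overlap between successive days of these. BCAS1 fell by 3.73 ± 0.60 from day 3 to day 12 (adjusted p = 0.00057) and rose by 2.97 ± 0.59 from day 12 to day 18 (adjusted p = 0.0041). The step from day 6 to day 12, -1.91 ± 0.57 (adjusted p = 0.031), was lost without day 6 library 1 (adjusted p = 0.12) or 2 (adjusted p = 0.065) or day 12 library 1 (adjusted p = 0.069) or 3 (adjusted p = 0.12).

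The transmembrane genes TMEM176B and TMEM108 differed from each other. TMEM176B was at 126, 105 and 58.1 CPM on day 3 and 36.5, 15.9 and 38.6 CPM on day 12, and fell by 1.53 ± 0.38 (adjusted p = 0.0073). TMEM108 was low on day 6, at 0.633, 0.555 and 0.535 CPM, and again high on day 12, at 7.86, 4.48 and 9.71 CPM, before 0.747, 1.4 and 1.57 CPM on day 18. TMEM108 rose by 3.60 ± 0.85 from day 6 to day 12 (adjusted p = 0.0095). It fell by 2.63 ± 0.78 from day 12 to day 18 (adjusted p = 0.025), a call lost without day 12 library 3 (adjusted p = 0.068) or without day 18 library 1 (adjusted p = 0.078), 2 (adjusted p = 0.067) or 3 (adjusted p = 0.064).

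Of the genes known by identifier, ENSSSCG00000011851 had the lowest fold change from day 3 to day 12. It was at 101, 102 and 26.4 CPM on day 3, 0.211, 0.277 and 0.357 CPM on day 6, 0.259, 0.64 and 1.72 CPM on day 12, and 25, 27.6 and 40.9 CPM on day 18, and it fell by 6.28 ± 0.99 from day 3 to day 12 (adjusted p = 0.00047). ENSSSCG00000026362 fell by 2.13 ± 0.43 (adjusted p = 0.0022) and ENSSSCG00000026117 by 1.91 ± 0.43 (adjusted p = 0.004). ENSSSCG00000029333 fell by 1.58 ± 0.54 (adjusted p = 0.037), but not without day 3 library 1 (adjusted p = 0.12) or 2 (adjusted p = 0.092) or day 12 library 2 (adjusted p = 0.12) or 3 (adjusted p = 0.097). ENSSSCG00000011796 was highest on day 0, at 28.7, 31.6 and 21.2 CPM. It was at 2.41 to 5.69 CPM on day 3, 3 to 4.75 CPM on day 12, 3.34 to 6.6 CPM on day 15 and 1.39 to 10.7 CPM on day 18.

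The day 0 mean of some genes rested largely on a single library, as in those given here. TAF7L, a germ cell subunit of the general transcription machinery, was at 9.3, 0.314 and 0.691 CPM on day 0, and it did not pass the filter on low counts in the endometrium. ENSSSCG00000015049 was at 0.303, 0 and 19.2 CPM and ENSSSCG00000028813 at 45.5, 12.8 and 5.43 CPM on that day. Neither was called on day 12 against day 3, with -2.31 ± 1.44 (adjusted p = 0.25) for ENSSSCG00000015049 and -0.93 ± 0.98 (adjusted p = 0.52) for ENSSSCG00000028813. ENSSSCG00000007695 was at 147, 90.4 and 73.5 CPM on day 3 and 50, 3.95 and 16.2 CPM on day 12, a difference of -2.05 ± 0.93 (adjusted p = 0.11).

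**Figure D2:**
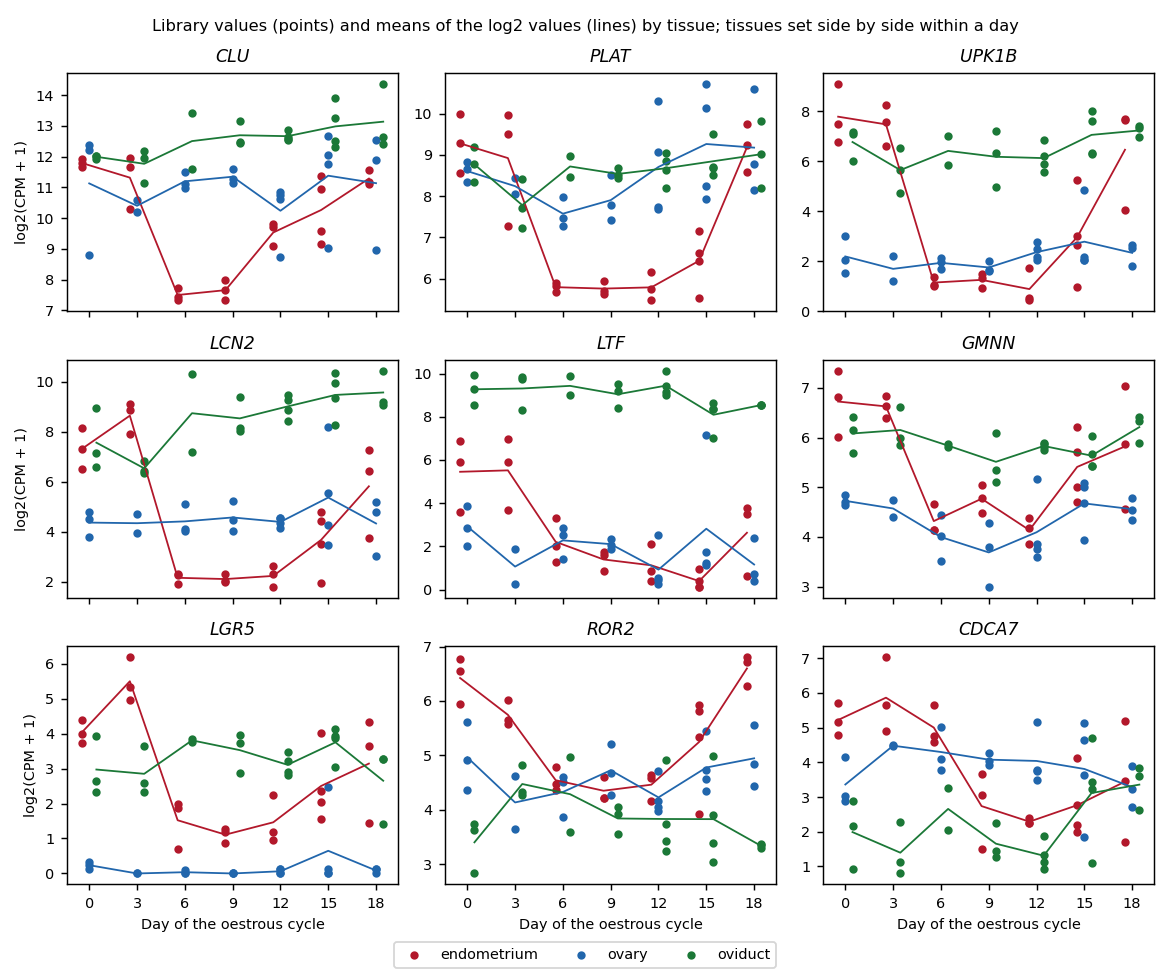
Points are single libraries of the endometrium, ovary and oviduct (log2(CPM + 1), tissues set side by side within a day), and lines join the means of the log2 values. For UPK1B and LCN2 the endometrium goes from above the oviduct on day 3 to below the ovary on days 6, 9 and 12; the high ovary point of LTF on day 15 is the library at 143 CPM.

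Counted over the set, 28 of the 29 genes were tested in the endometrium. From day 3 to day 6, 18 of the 28 were called, all lower, where 10% of all 15341 genes tested were called lower, and their median fold change was -2.20 against -0.01 over all genes. In 23 of the 29 genes every day 3 library was above every day 6 library, as it was in 29.5% of the 14446 genes with a mean endometrial level of at least 1 CPM. The calls of BCAS1, CLDN11, FAP, LTF and TMEM176B were each lost when 1 of certain libraries was left out, and the count then lay between 13 and 20.

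From day 3 to day 12, 22 of the 28 were called, all lower, where 13.7% of all genes were called lower, with a median fold change of -2.38 against -0.02 over all genes. Of these 22 calls, 19 held whichever library was left out. The other 6 genes, TMEM108, ENSSSCG00000011796, ENSSSCG00000028813, CLDN11, ENSSSCG00000007695 and ENSSSCG00000015049, had fold changes between -2.31 and 1.28. Between days 6 and 12, 6 of the 28 were called, where 14% of all genes were called. ANKS4B, BCAS1, BFSP1 and CDCA7 fell, CLU and TMEM108 rose, and 3 were called without day 12 library 3.

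From day 12 to day 18, 19 of the 28 were called higher, where 9.43% of all genes were called higher, and TMEM108 alone was called lower. The median fold change was 2.24 against 0.03 over all genes. Among the genes without overlap of the days and with at least 10 counts in each day 18 library, large rises were those of UPK1B, ENSSSCG00000011851 (5.05 ± 0.96, adjusted p = 0.0035), LCN2 and PLAT. AMCF-II and ANKS4B (adjusted p = 0.0098) were also called higher, and are not ranked with them because their day 12 levels rest on 1 and 5 counts. In all, 15 of the 20 calls held whichever library was left out, the exceptions being CLU, GMNN, LGR5, TMEM108 and VILL.

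Between day 18 and day 3, edgeR called 0 of the 28 genes, where 6.73% of all genes were called. Without adjustment, 10 genes had a p under 0.05, 8 of them lower and 2 higher on day 18, and DESeq2 called 3. A fit of these days alone also called 3, and leaving out day 18 library 2 or library 3 gave 1. The lowest fold changes, apart from that of ENSSSCG00000015049 (adjusted p = 0.11), which had 7 counts in all on day 18, were those of LTF (-2.99 ± 1.0, adjusted p = 0.074), LCN2 (-2.31 ± 0.69, adjusted p = 0.051) and CDCA7 (-2.11 ± 0.79, adjusted p = 0.11). The day 18 mean was between 3.73% and 207% of the day 3 mean, with a median of 68% over the 29 genes, and exceeded it in 6.

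**Figure D3:**
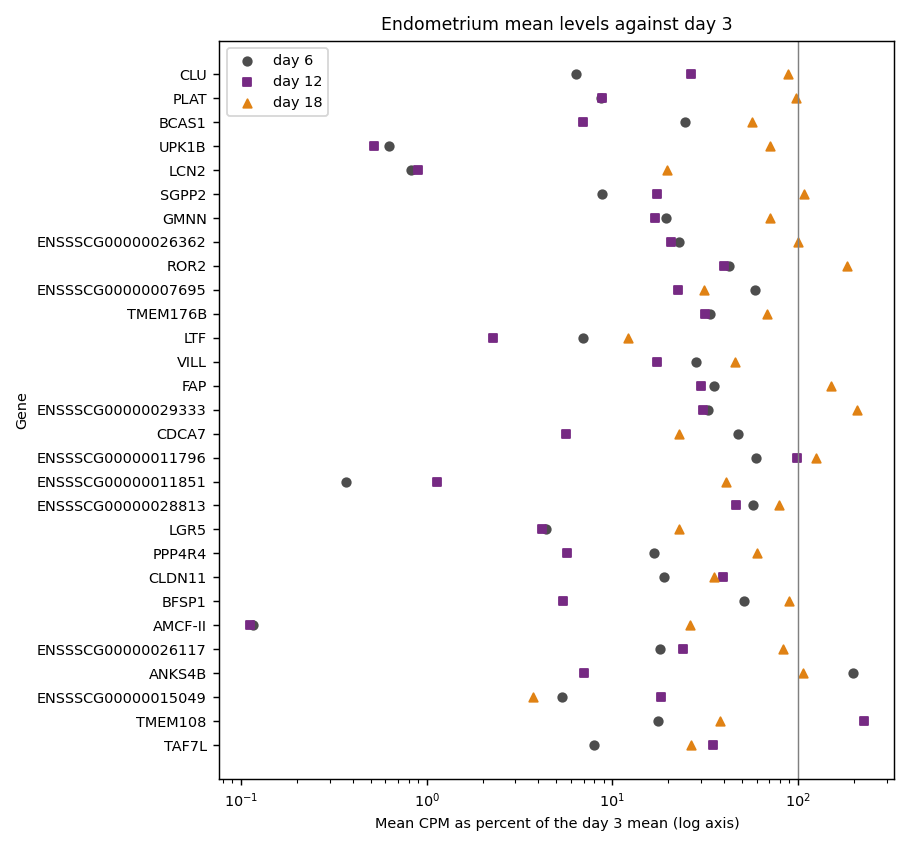
Each row is 1 of the 29 genes; the symbols give the endometrium mean CPM of days 6, 12 and 18 as a percent of the day 3 mean on a log axis, with the line at 100%. The medians are 18.9% on day 6, 17.5% on day 12 and 68% on day 18, and AMCF-II on days 6 and 12 rests on 1 count each.

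The order of the days was described from the means of all 7 days, which include those that chose the set. The lowest mean fell on day 6 in 3 genes (CLU, CLDN11 and ENSSSCG00000011796), on day 9 in 17, on day 12 in 7 (GMNN, BFSP1, BCAS1, ANKS4B, UPK1B, FAP and CDCA7) and on day 15 in 2 (TAF7L and LTF). The highest mean fell on day 0 in 18 genes, on day 3 in 9, on day 12 in TMEM108 and on day 18 in ROR2. The day 15 mean was above the day 12 mean in 24 of the 29. The correlation of a gene's mean log2(CPM + 1) over the 7 endometrium days with the mean of the other 28 was from 0.9851 for PPP4R4 to 0.3409 for TMEM108. These are correlations of 7 points that share the same libraries. Among genes outside the set, FAM81A (r = 0.9981), HSPBAP1 (r = 0.9925) and NME7 (r = 0.9917) had the profile most like the mean of the 29, with smaller changes, FAM81A being at 30.6 CPM on day 3 and 12.8 CPM on day 12.

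In the ovary and the oviduct the same contrasts used days that the choice did not. They asked whether genes that the choice took as flat between days 0 and 9 also differed little there. In the ovary, 23 of the 29 genes were tested between day 12 and day 3 and edgeR called 0 of them, as it did of all genes (0% called). Without adjustment 0 of the 23 had a p under 0.05, and DESeq2 called 0. Day 3 of the ovary had 2 libraries. From day 12 to day 18 edgeR called 0 of 23, where 2.93% of all genes were called, 3 had a p under 0.05 without adjustment, and DESeq2 called 1. Without ovary day 12 library 1, 2 were called.

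In the oviduct, edgeR called 1 of 29 genes, FAP, between day 12 and day 3, where 3.57% of all genes were called. Without adjustment 5 had a p under 0.05, DESeq2 called 3, a fit of both days alone called 2 and the replicate block 0. FAP was at 11.9, 13.8 and 7.88 CPM on day 3 and at 6.1, 2.23, 2.89 and 1.76 CPM on day 12, without overlap, and fell by 2.05 ± 0.49 (adjusted p = 0.031). The call was lost without oviduct day 3 library 1 (adjusted p = 0.11) or 2 (adjusted p = 0.092) or without day 12 library 2 (adjusted p = 0.1), 3 (adjusted p = 0.091) or 4 (adjusted p = 0.084). FAP was also not called in the fit of both days alone (-2.09, adjusted p = 0.053) or with the replicate block (-1.90, adjusted p = 0.073). In the same comparison 1 of 6 stromal markers and 2 of 14 matrix genes were called lower, with median fold changes of -0.93 and -1.22, and 0 of 5 smooth muscle markers were called, with a median of -1.81. Their part in the level of FAP was not tested. The change of FAP in the endometrium minus that in the oviduct was 0.48 ± 0.62 (adjusted p = 0.69).

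From day 12 to day 18 in the oviduct, 4 of the 29 were called, where 22.4% of all genes were called. CDCA7 rose by 2.84 ± 0.76 (adjusted p = 0.015) and ENSSSCG00000029333 by 1.01 ± 0.35 (adjusted p = 0.044; between 0.072 and 0.2 without any 1 of the day 12 libraries or day 18 library 1 or 2), while ENSSSCG00000015049 fell by 2.12 ± 0.52 (adjusted p = 0.01) and PPP4R4 by 0.82 ± 0.25 (adjusted p = 0.025). Of the 13 listed cell cycle genes, 11 were called higher in this comparison, with a median fold change of 3.83, as were 3 of 6 stromal and 2 of 5 smooth muscle markers. PPP4R4 was at 14.3, 27.6, 18.7 and 14.8 CPM on day 12 and at 10.1, 6.95 and 10.5 CPM on day 18, opposite to its rise in the endometrium. The oviduct call of PPP4R4 was lost in a fit of both days alone (-0.82, adjusted p = 0.11). It was also lost without day 12 library 2 (-0.57, adjusted p = 0.091) or day 18 library 2 (-0.74, adjusted p = 0.1). Leaving out oviduct day 12 library 2 left 2 calls and leaving out day 18 library 2 left 1, the call of CDCA7.

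**Figure D4:**
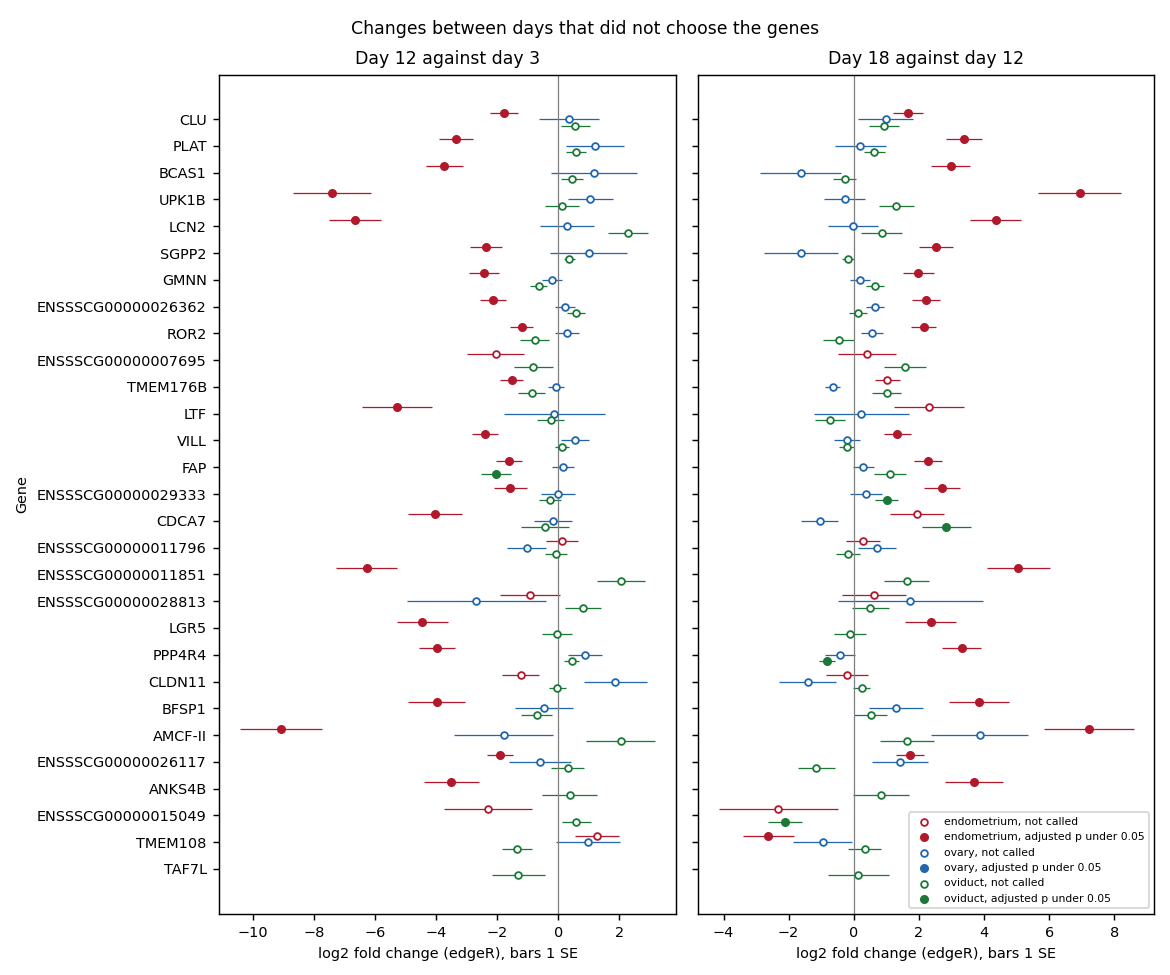
Points are edgeR log2 fold changes with bars of 1 SE for day 12 against day 3 (left) and day 18 against day 12 (right) in the endometrium, ovary and oviduct; filled points have an adjusted p under 0.05, and genes that did not pass the filter in a tissue have no point. The endometrium points lie left of 0 on the left panel and right of 0 on the right panel for most genes; those of AMCF-II rest on single counts, and those of ANKS4B and BFSP1 on 5 and 8 counts on day 12.

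The difference between tissues was tested as an interaction in 1 fit of all 66 libraries, in which the 29 genes were all tested. For day 12 against day 3, 9 genes had a more negative change in the endometrium than in the ovary, where 2.68% of all genes did, and 13 had a more negative change than in the oviduct, where 3.97% of all genes did. For day 18 against day 12, 12 genes had a more positive change in the endometrium than in the ovary (5.22% of all genes) and 9 than in the oviduct (3.87% of all genes). No gene of the set was called in the opposite direction in these tests. The 4 tests share the endometrium libraries and are not independent of each other. With a replicate block within day, CDCA7 was not called for day 12 against day 3, against the ovary (-3.85, adjusted p = 0.072) or the oviduct (-3.45, adjusted p = 0.063). BCAS1 was not called against the ovary for these days, nor GMNN and TMEM176B against the ovary for day 18 against day 12. The counts with this block, which also gained calls, are given in the last section.

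The 7 genes PLAT, BCAS1, UPK1B, LCN2, ENSSSCG00000026362, VILL and PPP4R4 were called in all 4 tests. UPK1B and PPP4R4 kept all 4 calls whichever library was left out, while the other 5 each lost at least 1 of them without some single library. The call of BCAS1 for day 12 against day 3 against the ovary was also lost with a replicate block within day (-4.32, adjusted p = 0.07). For day 12 against day 3 the endometrium minus the ovary was -8.39 ± 1.46 for UPK1B (adjusted p = 0.00041), -6.88 ± 1.32 for LCN2 (adjusted p = 0.0011) and -4.80 ± 0.73 for PPP4R4 (adjusted p = 0.00012). It was -4.84 ± 1.38 for BCAS1 (adjusted p = 0.029), -4.50 ± 1.0 for PLAT (adjusted p = 0.0047), -2.89 ± 0.58 for VILL (adjusted p = 0.0017) and -2.30 ± 0.54 for ENSSSCG00000026362 (adjusted p = 0.0075). The ovary side of the BCAS1 value rests on 2 and 10 counts in the day 3 libraries and 3 to 18 counts in those of day 12. CLU was called in none of the 4, with -2.06 ± 1.03 against the ovary (adjusted p = 0.26) and -2.29 ± 0.95 against the oviduct (adjusted p = 0.12), and its ovary libraries of day 12 ranged from 425 to 1824 CPM.

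These counts depend on single libraries. A fit that left 1 library on a day took its spread from the other groups, so it says nothing of the spread on that day. Without ovary day 3 library 1 or 3, the count of day 12 against day 3 in the endometrium against the ovary was 4 or 5, each leaving 1 library on that day. For day 18 against day 12 it was 7 against the ovary without endometrium day 18 library 2 and 6 without ovary day 18 library 3. Against the oviduct it was 5 without endometrium day 12 library 2 or day 18 library 3, and 4 without oviduct day 18 library 2.

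Many of the genes were not low outside the endometrium, mostly in the oviduct. In the ovary several were low, such as BCAS1 with means of 0.525 CPM on day 3 and 1.06 CPM on day 12. SGPP2 had 1.81 and 2.85 CPM there on these days. Over days 3, 6, 12 and 18 the highest of the 3 tissue means was that of the oviduct in 14 genes, of the endometrium in 10 and of the ovary in 5 (PLAT, TMEM108, CLDN11, FAP and TMEM176B). LTF was at 870, 926 and 314 CPM in the oviduct on day 3 and at 692, 573, 1125 and 514 CPM on day 12, where the endometrium was at 0.32 to 3.28 CPM. LCN2 in the oviduct was at 113, 84.5 and 81.4 CPM on day 3 and at 710, 470, 616 and 348 CPM on day 12, without overlap, a difference of 2.28 ± 0.67 (adjusted p = 0.065) in the direction opposite to the endometrium. CLDN11 was at 328 and 204 CPM in the ovary on day 3. ANKS4B was at or under the level of 3 counts on every day in the ovary, which allows no statement on its change there. The ovary mean of LGR5 was above that level only on day 15 (1.16 CPM), where library 1 was at 4.56 CPM. Like ANKS4B, the genes LGR5, TAF7L, ENSSSCG00000007695, ENSSSCG00000011851 and ENSSSCG00000015049 had too few counts in the ovary to be tested there.

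**Figure D5:**
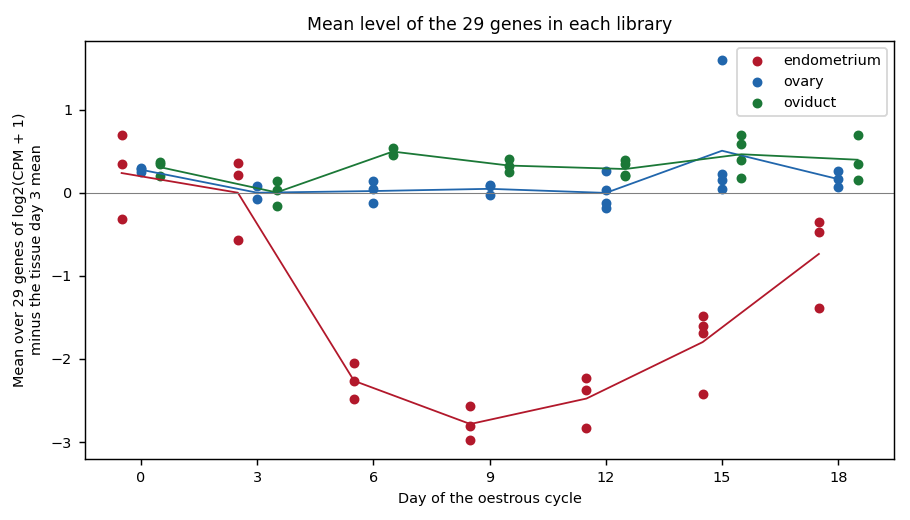
Each point is 1 library and shows log2(CPM + 1) averaged across the 29 genes after subtracting each gene's day 3 mean in that tissue; lines join the means of a day. The endometrium lies between -0.57 and 0.69 on days 0 and 3, below -2 on days 6, 9 and 12 and between -1.39 and -0.35 on day 18, while the ovary and oviduct stay within 0.7 of 0 except for ovary day 15 library 1 at 1.60.

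The 54 genes that met the first and second conditions but had a day 15 mean of at least 0.5 of day 0 were set beside the 29. From day 3 to day 6, 31 of the 54 were called lower (10% of all genes), with a median fold change of -2.08. On day 12, 15 of the 54 were called lower than on day 3 (13.7% of all genes), with a median of -0.87. A further 4 were called higher, for which no share over all genes is given. Between days 6 and 12, 14 were called, all higher, where 14% of all genes were called in either direction. The median over the 54 was 1.08 against -0.16 in the 29. From day 12 to day 18, 33 of the 54 were called higher (9.43% of all genes) with a median of 2.11. On day 18 against day 3, 14 of the 54 were called, all higher, where 6.73% of all genes were called in either direction. The median over the 54 was 1.23 against -0.49 in the 29. Day 15, which separates both sets, lies between the days compared, and the difference between the sets was not tested.

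The genes nearest to each limit of the choice were as follows. FAP and TAF7L had endometrial day 9 to day 0 ratios of 0.2477 and 0.2481, and LINGO3 and ANGPTL2, which met the other conditions, had 0.2508 and 0.2642. For day 15 over day 0, ROR2 (0.4885) and FAP (0.4709) were inside and MATN4 (0.5002) and HEY1 (0.5179) outside. In the ovary LTF (0.5003) and GMNN (0.5186) were above the lower limit and HSD11B1 (0.4961) and ENSSSCG00000013714 (0.4725) below it, while CDCA7 (1.517) and TMEM108 (1.34) were under the upper limit and KRT20 (2.336) and RPS6KA6 (2.786) above it. In the oviduct CLDN11 (0.5148) and TMEM176B (0.518) were above the lower limit and ENSSSCG00000005757 (0.4751) and MMP9 (0.4698) below it, while ENSSSCG00000015049 (1.791) and LCN2 (1.674) were under the upper limit and CHIA (2.04) and FLRT3 (2.119) above it. Of the 29 genes, 14 were kept in all 10 repeats that left out 1 endometrium library of days 0, 9 or 15.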

How the data were processed

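The authors trimmed the paired reads, mapped them with tophat2 to the pig assembly Sscrofa10.2 and deposited raw counts per Ensembl gene. The labels name a stranded mRNA kit and the study's methods a TruSeq RNA kit not called stranded, and whether the counting used strand is not given in the sources used here. The submitters' processing notes name FastQC, featureCounts, Cufflinks, Cuffdiff and edgeR. Columns were assigned to a tissue and day by name. Symbols came from a table of Ensembl identifiers that named 11804 of 25322 genes. The study's methods describe 3 gilts per day, from which the tissues were collected, but no source ties a library to a gilt, so p-values measure the spread between libraries.

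Counts were tested with edgeR 4.0.16 in R 4.3.3 (TMM, filterByExpr, robust glmQLFit, glmQLFTest), 1 fit per tissue with day as a factor and 1 joint fit for interactions, with Benjamini-Hochberg adjustment. SE was taken as |log2 fold change| over √F. The fits were tested on simulated data. DESeq2 1.42.0, its size factors, no filter, fits of 2 groups, replicate blocks and leaving out each library were alternatives. The 29 genes and the 16 marker and pathway lists were chosen with earlier results of these data known. Named genes were those highest on day 0, with the extreme changes on days 12 and 18, called in another tissue, nearest a limit, most like in profile or in a list. Intervals and floors cover counting error only, since the reads carry no molecular identifiers. Sequences of these genes were not used here.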

Additional observations from a re-analysis of the deposited data

Results flagged for a closer look

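In groups of 4 libraries, other than endometrium day 15, which was used to choose the genes, some libraries lay far from the other 3 for a gene of the set (Dixon's test at the 95% level, which chance alone passes in about 1 of 20 groups). The share of all genes flagged in the same libraries is not given here, so the counts are no result about the set. Ovary day 15 library 1 was the highest of its 4 libraries in 42.4% of all genes. In the ovary on day 15, library 1 was high in 11 of the 27 genes with at least 10 counts in a library. It was at 289 CPM for LCN2 (others 10.2 to 45.4), 143 CPM for LTF (1.21 to 2.3), 32.5 CPM for BCAS1 (0.571 to 0.806), 29.8 CPM for ENSSSCG00000026362 (18.5 to 20.1), 28 CPM for UPK1B (3.14 to 3.43) and 24.5 CPM for ENSSSCG00000007695 (0.427 to 0.666). It was also at 21.4 CPM for SGPP2 (0.322 to 1.33), 14.6 CPM for ENSSSCG00000011851 (0.0952 to 0.242), 13.6 CPM for ENSSSCG00000028813 (0 to 0.403), 4.56 CPM for LGR5 (0 to 0.0853) and 4.17 CPM for ENSSSCG00000015049 (0.0853 to 0.161). This is the library whose FOXJ1 was at 245 CPM, and day 15 of the ovary entered no comparison of the report except through the spread of the fit.

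In the ovary on day 12, library 1 was high in 6 of 20 genes, at 45.3 CPM for TMEM108 (3.29 to 3.85), 34.8 CPM for GMNN (11 to 13.5), 34.5 CPM for CDCA7 (10.3 to 12.6), 21.1 CPM for ENSSSCG00000026362 (8.04 to 9.31), 4.68 CPM for LTF (0.178 to 0.428) and 3.02 CPM for BFSP1 (0.171 to 0.533). On the same day library 3 was high for SGPP2 at 8.39 CPM (0.776 to 1.36).

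Single libraries were far from the others in a few further groups. In the oviduct, TMEM176B was at 39.9 CPM in day 12 library 1 (10.6 to 15.2), PLAT at 720 CPM in day 15 library 4 (365 to 414) and BFSP1 at 1.35 CPM in day 15 library 2 (0.496 to 0.551). Oviduct day 15 library 1 was at 81 CPM for ENSSSCG00000026362 (39.4 to 42.1) and at 182 CPM for ENSSSCG00000007695 (36.2 to 49.9).

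The tissues differed in their changes by the test of the difference itself. Between day 12 and day 3, 9 genes of the set differed between the endometrium and the ovary, where 2.68% of all genes had a more negative change, and 13 between the endometrium and the oviduct (3.97%). Between day 18 and day 12 the counts were 12 (5.22% of all genes more positive) and 9 (3.87%). The counts with a replicate block within day are given below. When 1 library was left out, the counts against the ovary were as low as 4 and 6 and those against the oviduct as low as 10 and 4. Called in all 4 tests were UPK1B (endometrium minus ovary -8.39 for day 12 against day 3), LCN2 (-6.88), BCAS1 (-4.84), PPP4R4 (-4.80), PLAT (-4.50), VILL (-2.89) and ENSSSCG00000026362 (-2.30), of which UPK1B and PPP4R4 kept all 4 calls whichever library was left out and the other 5 did not.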

How the results depend on the processing

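None of the 114 called fold changes of single genes turned its sign under the alternatives run, in which 1318 values kept their call and 188 lost it. The count of genes called in the endometrium was between 13 and 20 for day 6 against day 3, 20 and 22 for day 12 against day 3, 3 and 6 for day 12 against day 6, 16 and 20 for day 18 against day 12 and 0 and 1 for day 18 against day 3 when 1 library was left out. In the ovary it was 0 in every such fit for day 12 against day 3 and between 0 and 2 for day 18 against day 12, and in the oviduct between 0 and 2 and between 1 and 5. For the interactions it was between 4 and 12 and between 10 and 14 for day 12 against day 3 in the endometrium against the ovary and the oviduct, and between 6 and 12 and between 4 and 11 for day 18 against day 12. DESeq2 called 3 genes on day 18 against day 3 in the endometrium, 1 on day 18 against day 12 in the ovary and 3 on day 12 against day 3 in the oviduct, and fits of the 2 groups alone called 3 in the first and 2 in the last. The choice of genes itself gave 44 genes (20 shared) with medians in place of means, 48 (27 shared) with 0.5 added in place of 1, 28 (21 shared) with TMM library sizes and between 21 and 39 when 1 endometrium library was left out. The cause of these differences was not tested.

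Library numbers were not taken as pairing the libraries. Across tissues on the same day, libraries of the same number had correlated deviations from their group means in 44 of 63 pairs (r over 0.1, median 0.133). For different numbers it was 11 of 148 pairs (median -0.053). Across days of the endometrium it was 3 of 18 pairs of the same number and 10 of 36 of different numbers. With the replicate block, 0 genes were called in the oviduct on day 12 against day 3, ENSSSCG00000029333 was not called there on day 18 against day 12 (0.91, adjusted p = 0.085), TMEM176B was not called for the difference between endometrium and ovary on these days (1.60, adjusted p = 0.05), and LGR5 was not called in the endometrium on day 18 against day 12 (adjusted p = 0.063). A replicate block within day gave 7, 13, 11 and 11 for the 4 interactions. With it, BCAS1 (-4.32, adjusted p = 0.07) and CDCA7 (-3.85, adjusted p = 0.072) were not called for day 12 against day 3 in the endometrium against the ovary, nor CDCA7 against the oviduct (-3.45, adjusted p = 0.063), nor GMNN (1.47, adjusted p = 0.05) and TMEM176B (1.72, adjusted p = 0.056) for day 18 against day 12 against the ovary. At these depths, a gene under 3 counts in a library, worth 0.223 to 0.335 CPM, cannot be told from absent in that library.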
